A study of Mus musculus with 6 samples.

Results

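The 6 classical actin genes were followed in the hearts of mice on postnatal day 10, taken from 3 knockout mice that lack miR-1-2 and from 3 wild-type mice. The microRNA miR-1 is made in heart and skeletal muscle from more than one gene, and miR-1-2 is among them. Members were all probe sets whose platform gene symbol was Acta1, Acta2, Actc1, Actg2, Actb or Actg1. This gave 12 of the 45101 probe sets, namely 9 ordinary probe sets and 3 array control probe sets for Actb. As genes they are 6 of the 18193 that could be named. Both groups were labelled alike as heart, with total RNA extracted by Trizol, and each mouse was measured on 1 array. The labels give no strain, sex, way of deletion or pairing of mice, and the microRNA itself was not analysed here.

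Actin is the protein of the thin filament and of the cytoskeleton. Actc1 encodes the cardiac α-actin that makes up most of the thin filament of the adult heart muscle cell, and Acta1 the skeletal α-actin, which the rodent heart uses before and around birth and again under load. Acta2 encodes the α-actin and Actg2 the γ-actin of smooth muscle, and Acta2 is also made by the early embryonic heart and by activated fibroblasts. Actb and Actg1 encode the cytoplasmic β- and γ-actins found in all cells. Muscle actin genes are switched on by serum response factor (SRF), which binds CArG boxes in their promoters together with myocardin or the myocardin-related factors.

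The hearts of the 2 groups did not overlap in the balance of Acta1 and Acta2, but no actin gene passed the test over all genes. The skeletal isoform Acta1 was lower in every knockout heart than in any wild-type heart, and the smooth muscle isoform Acta2 was higher in every knockout heart. The cardiac isoform Actc1 differed by -0.06, at the top of the measuring range. Actg2, Actb and Actg1 had lower means in knockout with values that overlapped. In limma with Benjamini-Hochberg adjustment, 0 of 6 actin genes passed an adjusted p of 0.05 (0% of all genes passed), and 2 of 6, Acta1 and Acta2, had an unadjusted p under 0.05 (4.1% of all genes). The groups did not overlap for 3 of 6 actin genes, against 8.86% of all genes. Knockout was the higher group for 1 of these, against 4.57% of all genes, and the lower for 2, against 4.28%. With the replicate numbers as a block 0 of 6 passed as well (0.0715% of all genes), and the same count of 2 had an unadjusted p under 0.05 (7.29% of all genes).

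Levels below are RMA values on the log2 scale, where a difference of 1 is a doubling, and differences are knockout minus wild type. RMA makes 1 value per probe set after setting all arrays to one distribution. Probe sets differ in brightness for reasons other than the amount of RNA, so levels are compared between arrays and not between isoforms. Array medians lay between 6.03 and 6.11, and values ran from 2.64 to 14.59. Arrays carry no depth, and their number, 3 in each group, sets the precision. The arrays also differed within groups. Knockout replicate 2 and all wild-type arrays had high Xist, from 11.91 to 12.19, and knockout replicates 1 and 3 had 7.55 and 7.57, so sex was not balanced between the groups. Replicate 1 of knockout and of wild type had Ucp1, the uncoupling protein of brown fat, at 10.39 and 9.45, against 5.22 to 6.68 elsewhere. All 11 heart muscle markers, from Nkx2-5 to Myl2, were well above the floor, with mean levels from 8.69 to 14.47.

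Acta1 stood at 10.13, 10.22 and 10.23 in knockout replicates 1, 2 and 3, against 11.06, 10.62 and 10.47 in wild-type replicates 1, 2 and 3. The knockout hearts lay within 0.1 of each other, while the wild-type hearts were spread more widely, with replicate 1 the highest. The means were 10.19 ± 0.05 in knockout and 10.72 ± 0.31 in wild type (SD, n = 3 each). The difference of -0.53 ± 0.14 (SE) put the knockout level at 0.694 of the wild-type level, with a 95% interval from -0.84 to -0.21. It did not pass over all genes (limma unadjusted p = 0.00463, adjusted p = 1.00, and adjusted p = 0.302 with the replicate block). Only 36 of 18193 genes, 0.198%, differed by as much or more in either direction. Same-numbered arrays differed by -0.93, -0.41 and -0.24, all negative because the groups did not overlap. Wild-type replicate 1 carried part of the size: without it the difference was -0.35, and with replicates 2 and 3 of both groups it was -0.32.

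Acta2 has 3 probe sets. The bright one read 13.19, 13.23 and 13.12 in knockout replicates 1, 2 and 3, against 12.89, 12.76 and 12.63 in wild-type replicates 1, 2 and 3. Every knockout heart was above every wild-type heart, and the means were 13.18 ± 0.06 in knockout and 12.76 ± 0.13 in wild type (SD, n = 3 each). The difference of 0.42 ± 0.08 (SE) is 1.34-fold, with a 95% interval from 0.23 to 0.61. It had the smallest p of the actin genes and was 19th of 18193 in that order, yet did not pass over all genes (limma unadjusted p = 0.000844, adjusted p = 0.721, and adjusted p = 0.161 with the replicate block). Same-numbered arrays differed by 0.30, 0.47 and 0.49. Weighting arrays by their estimated quality brought Acta2 past the threshold (limma adjusted p = 0.0271), in a fit that called 2.29% of all genes. In the same kind of fit over all probe sets, this probe set was not called (limma adjusted p = 0.101).

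The second Acta2 probe set showed the same order at a lower brightness. It read 6.91, 7.08 and 6.79 in knockout, against 6.54, 6.03 and 6.35 in wild type, a difference of 0.62 ± 0.13 (SE) with no overlap. The identifier of the bright probe set ends in _s_at, which on this platform marks probes that match several transcripts, and that of the second does not. The third Acta2 probe set was dim and scattered, at 5.17, 6.47 and 5.65 in knockout and 5.28, 5.63 and 6.14 in wild type. Its difference of 0.08 changed sign when knockout replicate 2 (-0.27) or wild-type replicate 1 (-0.12) was left out. At the level of single probe sets, limma passed 0 of 9 actin probe sets (0.00666% of all probe sets), 3 of 9 had an unadjusted p under 0.05 (3.94%), and the groups did not overlap for 4 of 9 (8.7%). With the replicate block 0 of 9 passed (0.0444%) and 4 of 9 had an unadjusted p under 0.05 (6.49%).

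**Figure D1:**
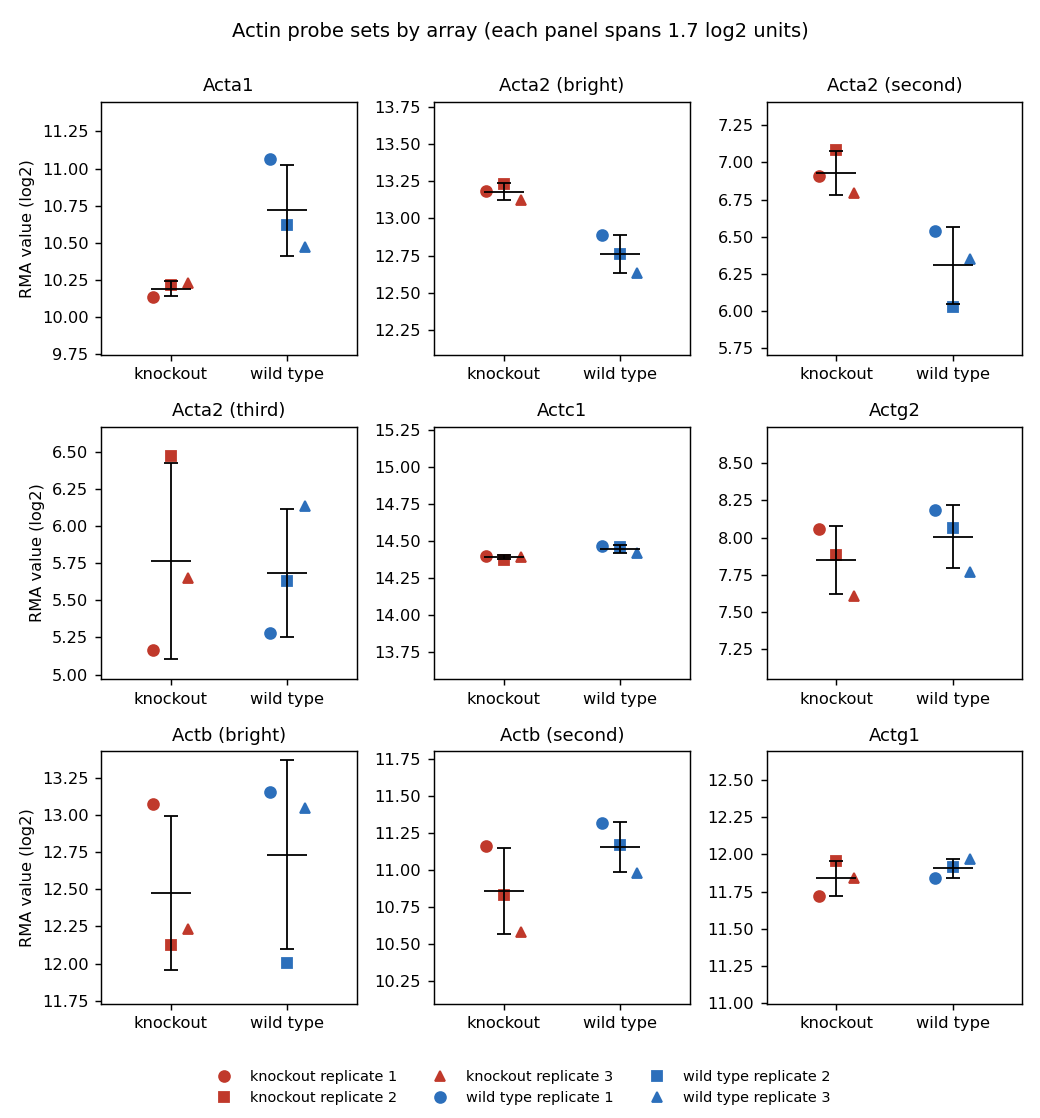
RMA values (log2) of the 9 ordinary actin probe sets in each of the 3 knockout and 3 wild-type hearts; every panel spans the same height, and the bar and whiskers are the mean and SD of 3 arrays. Acta1 lies at 10.13 to 10.23 in knockout against 10.47 to 11.06 in wild type, and the bright Acta2 probe set at 13.12 to 13.23 in knockout against 12.63 to 12.89 in wild type.

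The order of the groups was also looked at beside sex and brown fat. Knockout replicate 2, the one knockout heart with high Xist, had Acta1 at 10.22 and Acta2 at 13.23, outside the range of the 3 wild-type hearts, which all had high Xist. With the Xist level as a covariate the difference was -0.52 ± 0.20 (SE) for Acta1 and 0.46 ± 0.12 (SE) for Acta2. Neither passed in that fit (limma adjusted p = 0.625 for both). Without the first replicates, which were high in Ucp1, the difference was -0.32 for Acta1 and 0.48 for Acta2. The part of sex and of brown fat in these differences was not tested.

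Actc1 read 14.40, 14.38 and 14.40 in knockout, against 14.46, 14.46 and 14.42 in wild type. The knockout values were all slightly lower. The difference of -0.06 ± 0.06 (SE) had a 95% interval from -0.20 to 0.09 and did not pass (limma adjusted p = 1.00). Among all 45037 ordinary probe sets, 2 were brighter on average than the one for Actc1. This close to the highest values on the arrays a change in Actc1 may not show, and the unbroken order of the 2 groups rests on a few hundredths of a log2 unit.

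RMA already sets all arrays to one distribution, and the ratio of 2 isoforms within an array also does not move with a shift of the whole array. Each ratio is given as a log2 difference relative to its wild-type mean. Acta1 against Actc1 stood at -0.54, -0.43 and -0.44 in knockout replicates 1, 2 and 3, and at 0.33, -0.11 and -0.22 in wild-type replicates 1, 2 and 3. Acta2 against Actc1 stood at 0.47, 0.54 and 0.41 in knockout, and at 0.11, -0.01 and -0.10 in wild type. Both ratios were apart between the groups, in opposite directions. Acta1 minus Actc1 averaged -0.47, but -0.31 without wild-type replicate 1 and -0.27 with replicates 2 and 3 of both groups. As Actc1 varied little and lies near the top of the scale, these ratios mostly restate Acta1 and Acta2. They are described without a test.

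The ratio of Acta1 to Acta2 showed the widest gap of the 5 ratios. It stood at -1.01, -0.97 and -0.85 in knockout, against 0.22, -0.09 and -0.12 in wild type. The mean difference was -0.95 ± 0.12 (SE, n = 3 each), so that knockout hearts had 0.519 of the wild-type ratio of skeletal to smooth muscle α-actin signal. Leaving out any 1 array gave values between -1.01 and -0.84. The nearest hearts of the 2 groups were knockout replicate 3, at -0.85, and wild-type replicate 3, at -0.12. These ratios restate the Acta1 and Acta2 values within each array and add no independent measurement.

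**Figure D2:**
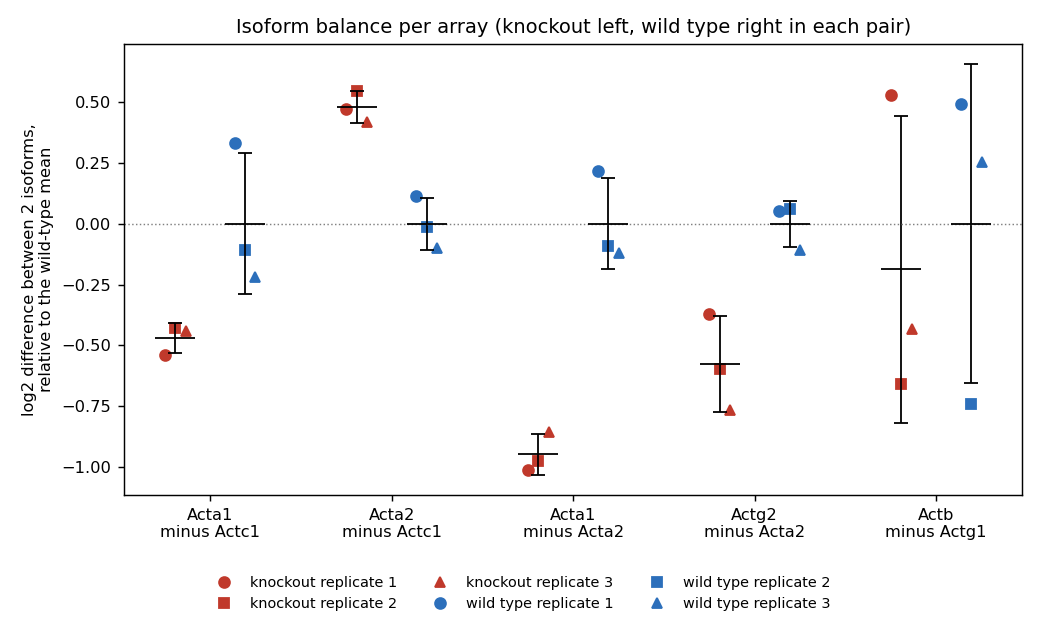
Log2 difference between 2 actin isoforms in the same array, relative to the wild-type mean of that difference, for 5 isoform pairs; points are single hearts, and the bar and whiskers are the mean and SD of 3 arrays. Acta1 minus Acta2 is at -1.01 to -0.85 in knockout and -0.12 to 0.22 in wild type, while Actb minus Actg1 overlaps widely.

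Actg2, the γ-actin of smooth muscle, did not follow Acta2. It read 8.06, 7.88 and 7.61 in knockout replicates 1, 2 and 3, against 8.19, 8.06 and 7.77 in wild-type replicates 1, 2 and 3. The groups overlapped, and the difference was -0.16 ± 0.14 (SE, limma adjusted p = 1.00). Every knockout heart was lower than the wild-type heart of its number, by -0.13, -0.18 and -0.16. In each group replicate 1 was the highest and replicate 3 the lowest. The labels pair no mice, and across numbers knockout replicate 2, at 7.88, was above wild-type replicate 3, at 7.77. The size depended on single arrays, at -0.04 without knockout replicate 3, -0.07 without wild-type replicate 1, -0.26 without knockout replicate 1 and -0.28 without wild-type replicate 3. With array weights it was -0.32 (limma adjusted p = 0.0987). Within arrays, Actg2 against Acta2 stood at -0.37, -0.60 and -0.76 in knockout and at 0.05, 0.06 and -0.11 in wild type, with no overlap.

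Markers of smooth muscle and mural cells did not share the order of Acta2 as a group. Of 15 listed markers, 8 were higher and 7 lower in knockout, with a median difference of 0.01, against 0.00048 over all genes. Their mean level ran from 8.86 to 9.06 in knockout and from 8.88 to 8.94 in wild type, and their summed linear signal from 15417 to 17796 in knockout and from 15180 to 16120 in wild type. The groups were apart for 2 of the 15, which is 13.3% against 8.86% of all genes. Myl9, a myosin regulatory light chain, was higher at 12.31, 12.57 and 12.27 in knockout against 12.15, 12.10 and 12.20 in wild type, and Cspg4, a pericyte proteoglycan, was lower by -0.08. Myh11, the myosin heavy chain that defines smooth muscle, differed by 0.01 and Tagln by -0.04. Cnn1, the calponin of smooth muscle, read 7.27, 7.42 and 6.87 in knockout against 7.05, 6.95 and 6.60 in wild type. Its groups overlapped, with a difference of 0.32 and knockout higher in 3 of 3 same-numbered pairs, by 0.23, 0.47 and 0.27. The labels pair no mice, and knockout replicate 3, at 6.87, was below wild-type replicates 1 and 2. In whole-heart RNA, fewer cells of a type and less RNA per cell cannot be told apart. Fibroblast markers, 3 of 11 higher with a median of -0.02, overlapped between the groups.

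Skeletal muscle also expresses Acta1, so its markers were followed beside it. Of 17 markers, 10 had a mean level under 6, among them Myh1, Myh4, Myh8, Tnnt3 and Actn3, and 7 were higher and 10 lower in knockout, with a median difference of -0.0085. Their mean level overlapped, at 5.64 to 5.70 in knockout and 5.67 to 5.79 in wild type. Their summed linear signal was 1130 to 1184 in knockout and 1209 to 1287 in wild type, with no overlap. The groups were apart for 1 of the 17, 5.88% against 8.86% of all genes. This was Mybpc2, the fast skeletal myosin-binding protein C, with the highest level of the list and a difference of -0.38. The summed signal includes Mybpc2 and weighs bright genes most, so its gap is not an observation separate from Mybpc2. Myl1, a skeletal myosin light chain, differed by -0.42 and Myh8 by 0.13, both with overlap. The part of these in the Acta1 difference was not tested. Of the genes that are commonly read beside Acta1 as fetal or load-induced genes, Nppa differed by -0.45, Nppb by -0.72 and Myh7 by 1.58, and the groups overlapped for each of these. Myh7 was higher in 3 of 3 same-numbered pairs, by 1.23, 1.39 and 2.12, and passed with the replicate block (limma adjusted p = 0.0261, against 1.00 without it). Nppb was lower in 3 of 3 pairs, and its limma adjusted p was 0.0837 with the block. Nppa went both ways in these pairs, by -0.34, 0.33 and -1.34, with knockout replicate 3 the lowest array. Such pairs rest on the replicate numbers alone, as the labels pair no mice. Atrial markers, Nppa among them, were lower in 5 of 5, against 49.8% of all genes. Their mean level was 11.13, 11.46 and 10.03 in knockout against 11.65, 10.94 and 11.52 in wild type, with overlap. Knockout replicate 3 was the lowest array, and knockout replicate 2 lay above wild-type replicate 2. The part of atrial tissue in the Acta1 difference was not tested.

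The cytoplasmic Actb has 5 probe sets, and they did not tell one story. The bright probe set fell into a high and a low level that cut across the genotypes. It read 13.07, 12.12 and 12.23 in knockout replicates 1, 2 and 3, against 13.16, 12.00 and 13.04 in wild-type replicates 1, 2 and 3. Knockout replicate 1 and wild-type replicates 1 and 3 were high and the other arrays low, so the difference of -0.26 ± 0.33 (SE) sat inside a spread of 1.15 between the highest and the lowest array. The second probe set read 11.16, 10.83 and 10.58 in knockout, against 11.32, 11.17 and 10.98 in wild type, a difference of -0.30 ± 0.14 (SE, limma adjusted p = 1.00) with overlap. It was -0.16 without knockout replicate 3, -0.45 without knockout replicate 1 and -0.47 with array weights.

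The 3 control probe sets for Actb read the 3′ end, the middle and the 5′ end of the transcript. They differed by -0.13, -0.14 and -0.14, and all 5 Actb probe sets had a lower mean in knockout. The 5′ control read 12.01, 11.96 and 11.89 in knockout against 12.15, 12.09 and 12.02 in wild type, with all knockout values lower. The 4 probe sets other than the bright one correlated with each other at 0.93 to 0.98 over the 6 arrays, and the bright one correlated with them at 0.40 to 0.55. These share arrays and a transcript, so the correlations are a description. The gap between the 3′ and 5′ controls, a sign of RNA degradation, was 0.19, 0.09 and 0.08 in knockout and 0.18, 0.10 and 0.07 in wild type. This Actb gap was largest in replicate 1 of both groups and did not separate them. The same gap for the Gapdh controls was 0.048, 0.030 and 0.064 in knockout and 0.003, 0.008 and 0.058 in wild type. It was largest in replicate 3 of both groups, which overlapped.

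**Figure D3:**
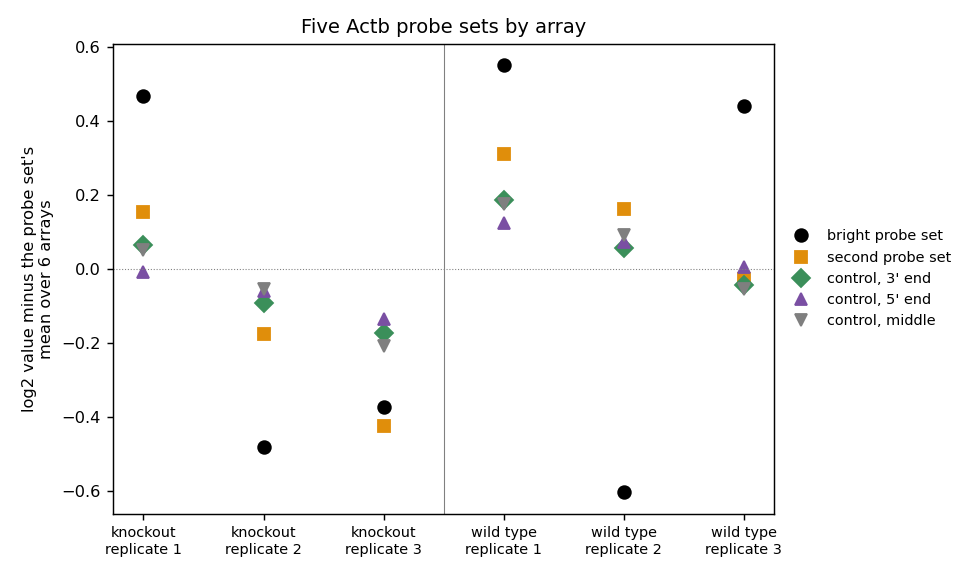
Values of the 5 Actb probe sets in each array as the log2 difference from that probe set's own mean over the 6 arrays. The bright probe set splits into 3 arrays at 0.44 to 0.55 and 3 arrays at -0.60 to -0.37, a split that the second and the control probe sets do not show.

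Actg1, the cytoplasmic γ-actin, read 11.72, 11.96 and 11.84 in knockout, against 11.84, 11.92 and 11.97 in wild type. The groups overlapped and the difference was -0.07 ± 0.08 (SE, 95% interval -0.26 to 0.12). Its one probe set also carries the _s_at ending. Actb against Actg1 stood at 0.53, -0.66 and -0.43 in knockout and at 0.49, -0.74 and 0.25 in wild type, which follows the split of the bright Actb probe set. Myeloid cells are rich in cytoplasmic actin, and 8 of 8 myeloid markers were lower in knockout, against 49.8% of all genes. Their mean level was 7.20 to 7.39 in knockout against 7.42 to 7.71 in wild type. The groups were apart for 5 of the 8, all lower, which is 62.5% against 8.86% of all genes. The part of these cells in the lower Actb values was not tested.

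The promoters of the isoforms that set the groups apart are shown with those of Actc1 and Actg1, because all are read by SRF. RefSeq sequences of build GRCm38.p6 were at hand for 4 of the 6 genes, each with 250 bases before the annotated start and 50 after it, on the minus strand. Capitals mark CArG boxes, meaning CC, then 6 bases that are A or T, then GG, also with 1 other base allowed among the 6, and the letters CATTCC on either strand (GGAATG when read on the printed strand), the core of the MCAT element that TEAD factors bind. The regions are chr8:123894726-123895025 for Acta1, chr19:34255324-34255623 for Acta2, chr2:114052826-114053125 for Actc1 and chr11:120348446-120348745 for Actg1.
Acta1: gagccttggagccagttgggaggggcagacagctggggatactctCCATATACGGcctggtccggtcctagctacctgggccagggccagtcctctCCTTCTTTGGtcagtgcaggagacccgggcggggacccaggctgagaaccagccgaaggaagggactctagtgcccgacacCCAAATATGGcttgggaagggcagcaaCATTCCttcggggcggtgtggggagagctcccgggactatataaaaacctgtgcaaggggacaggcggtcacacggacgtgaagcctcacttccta
Acta2: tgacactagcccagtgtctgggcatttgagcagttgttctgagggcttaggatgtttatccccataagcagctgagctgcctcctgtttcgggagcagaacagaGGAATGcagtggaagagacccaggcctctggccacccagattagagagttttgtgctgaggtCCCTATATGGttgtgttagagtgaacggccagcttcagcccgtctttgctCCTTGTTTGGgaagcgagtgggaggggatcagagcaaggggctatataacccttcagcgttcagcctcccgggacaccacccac
Actc1: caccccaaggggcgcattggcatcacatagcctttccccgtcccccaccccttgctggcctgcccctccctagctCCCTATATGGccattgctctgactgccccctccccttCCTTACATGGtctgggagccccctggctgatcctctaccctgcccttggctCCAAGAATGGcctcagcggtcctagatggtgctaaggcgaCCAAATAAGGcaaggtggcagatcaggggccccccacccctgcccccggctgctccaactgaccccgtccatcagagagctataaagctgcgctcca
Actg1: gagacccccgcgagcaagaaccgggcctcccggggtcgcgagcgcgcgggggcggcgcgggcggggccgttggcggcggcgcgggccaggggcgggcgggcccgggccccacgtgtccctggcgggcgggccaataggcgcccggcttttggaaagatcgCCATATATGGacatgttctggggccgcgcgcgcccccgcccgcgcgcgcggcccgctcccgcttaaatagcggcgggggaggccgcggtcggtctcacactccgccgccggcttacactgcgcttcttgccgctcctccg

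The windows differed in the kind of box they hold. Acta1 had 1 exact CArG box, CCAAATATGG, starting 73 bases before the annotated start, and Actc1 had 1, CCAAATAAGG, 47 bases before it. Actg1 had 1 as well, CCATATATGG, 90 bases before the start. Acta2 had no exact box in this window and 2 boxes with 1 other base, CCCTATATGG at 84 and CCTTGTTTGG at 34 bases before the start. Boxes with 1 other base were also found in Acta1 and Actc1. Of 32851 promoters of this length, 1.63% held an exact box and 9.98% held a box with at most 1 other base. CATTCC stood 46 bases before the start in Acta1, and on the other strand 146 bases before it in Acta2, with 14.7% of promoters holding it. None of the motifs overlapped another. These letters are a description and show no binding.

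The regulators that read these promoters were measured too. Srf read 8.53, 9.05 and 9.04 in knockout, against 8.64, 8.84 and 8.98 in wild type, a difference of 0.06 ± 0.15 (SE). Myocd, which encodes myocardin, differed by 0.10 ± 0.09, and the myocardin-related factors Mrtfa and Mrtfb by 0.01 and 0.02. The groups overlapped for all of these. Of 21 measured genes of SRF regulation, 19 were higher and 2 lower in knockout, with a median of 0.06 against 0.00048 over all genes, and the groups were apart for 2, both higher. That is 9.52%, near the 8.86% of all genes. Hopx, a small homeodomain protein that keeps SRF off DNA, read 12.62, 12.61 and 12.61 in knockout against 12.44, 12.43 and 12.45 in wild type. Ablim1, an actin-binding LIM protein, differed by 0.12. Its relative Ablim3 differed by 0.35 ± 0.21 (SE) and Nkx2-5, the cardiac homeobox factor, by 0.12, both with overlap.

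Among 26 measured partners of the thin filament, 16 were higher and 10 lower, with a median of 0.03, and the groups were apart for 4, which is 15.4% against 8.86% of all genes. Csrp3, the muscle LIM protein of the Z-disc, read 12.78, 12.80 and 12.81 in knockout against 13.07, 13.01 and 12.99 in wild type, a difference of -0.23 ± 0.07 (SE). Cfl2, the muscle cofilin that severs filaments, differed by -0.17, and Cap2, a cyclase-associated protein that recycles actin monomers, by 0.17. Neb, the nebulin of skeletal muscle, differed by -0.48 but lay near the floor of the scale, at 3.08 to 3.29 in knockout and 3.47 to 3.81 in wild type.

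Of 32 measured genes of monomer binding and filament turnover, 26 were higher and 6 lower, with a median of 0.10. That 81.2% were higher stands against 50.2% of all genes. The groups were apart for 5, which is 15.6% against 8.86% of all genes. Twf2, a twinfilin that caps filaments and binds monomers, read 8.82, 9.09 and 9.21 in knockout against 9.41, 9.47 and 9.32 in wild type, a difference of -0.36 ± 0.11 (SE). Arpc1a, a subunit of the branching Arp2/3 complex, was higher at 8.31, 8.68 and 8.53 in knockout against 8.14, 8.15 and 8.27 in wild type. Coro1b, a coronin that works on the same branches, differed by 0.23, and Dstn, the depolymerising factor destrin, by 0.18. Of 15 measured genes of actin folding and processing, 11 were higher and 4 lower, with a median of 0.06, and the groups were apart for 4, all higher, which is 26.7% against 8.86% of all genes. These were Cct2 and Cct5, subunits of the chaperonin that folds actin, at 0.07 and 0.11, the prefoldin subunit Pfdn6 at 0.09 and Setd3, the methyltransferase that modifies an actin histidine, at 0.05. An unadjusted limma p under 0.05 was found for 0 of the 15 genes, against 4.1% of all genes. The gaps were small: for Setd3 the lowest knockout value was 9.7245 and the highest wild-type value 9.7239. The prefoldin subunits Pfdn5 and Pfdn4 differed by 0.14 and -0.08, with overlap.

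Over the 4 lists, 94 different genes were measured and 0 passed limma at an adjusted p of 0.05, with or without the replicate block. An unadjusted p under 0.05 was found for 7 of 94, which is 7.45% against 4.1% of all genes. The groups were apart for 15 of 94, which is 16.0% against 8.86% of all genes, and 76.6% were higher in knockout against 50.2% of all genes. The largest difference among them, 0.85, was that of Tnni1, the slow fetal troponin I, named here after its value was seen, and its groups overlapped. A tilt to higher values was not particular to the 4 lists. In knockout, 9 of 11 heart muscle markers, some of them also in the 4 lists, and 7 of 9 endothelial markers were higher. Other marker lists went the other way, with 3 of 11 fibroblast, 0 of 5 atrial and 0 of 8 myeloid markers higher.

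**Figure D4:**
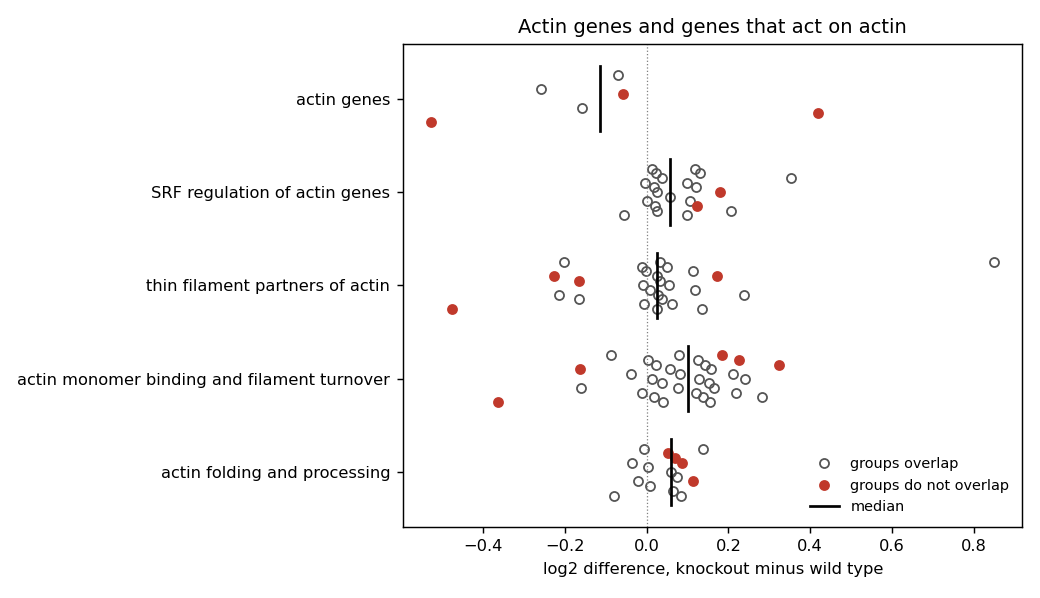
Log2 difference (knockout minus wild type) of the 6 actin genes and of the measured genes in 4 lists of actin regulators and partners, 1 point per gene, with the list median as a black line and filled points where the 3 knockout and 3 wild-type hearts do not overlap. Acta1 is at -0.53 and Acta2 at 0.42; of the partners, Tnni1 at 0.85 and Neb at -0.48 lie farther out than Acta2, and the list medians lie between 0.03 and 0.10.

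The 6 isoforms did not share one pattern over the arrays. For each, the 3 genes with the highest Pearson correlation over the 6 arrays were taken from 1214 or 1215 genes with a mean of at least 6 and an SD of at least 0.2. Nearest to Acta1 were Me1, the cytosolic malic enzyme (r = 0.97), Asb5, a muscle SOCS-box protein (0.95), and Pdk4, a kinase that inhibits pyruvate dehydrogenase (0.95). Nearest to Acta2 were Cox6a1, a subunit of cytochrome c oxidase (0.96), Maob, a monoamine oxidase (0.96), and Pgam1, a glycolytic mutase (0.94). Nearest to Actc1 were Kcnd2, a channel of the transient outward potassium current (0.96), Arhgap20 (0.94) and Iigp1 (0.93). With so many genes and 6 arrays of 2 genotypes, such values are a description of shape.

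Actg2 was nearest to Ahsg, Ppp2r3a and Ddx6, at 0.94, 0.93 and 0.92. Actg1 was nearest to Wt1, Rufy3 and Cenpk, at 0.99, 0.99 and 0.98. For Actb, through its bright probe set, the nearest were the ribosomal protein gene Rpl27a (1.00), Gm6787 (0.99) and the α-globin gene Hba-a2 (0.98), which has a near-identical copy. Rpl27a read 11.18, 10.16 and 10.25 in knockout and 11.22, 10.04 and 11.05 in wild type, the same high and low arrays as the bright Actb probe set. Between isoforms, Acta1 and Actc1 correlated at 0.89 over the 6 arrays, Acta1 and Acta2 at -0.60, and Acta2 and Actg2 at -0.11. These values include the differences between the groups. Within wild type, Acta1 and Acta2 both fell from replicate 1 to replicate 3, while in knockout they followed no common order.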

How the data were processed

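The deposited values are log2 values that the authors computed by RMA with affy in R, as the series' design text says, after scanning with GCOS 1.4, per the submitters' processing notes. Tests ran on 45037 probe sets, without the 64 controls. Names came from the platform annotation, updated by gene identifier to RefSeq GRCm38.p6 symbols. A gene was its brightest probe set among those that name 1 gene (18193 genes, of which 18031 matched RefSeq). Of 103 listed pathway genes, 94 were measured.

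The test was limma 3.58.1 under R 4.3.3 (lmFit, eBayes), two-sided, with Benjamini-Hochberg adjustment over the whole table and a threshold of 0.05, and the script was tested on simulated data. Arrays were treated as separate mice, as the design text states. Same-numbered arrays deviated together from their group means (r = 0.54, 0.18 and 0.13), all over the 0.1 set for pairing, so a block was fitted as an alternative. Crossed numbers gave 0.35 and 0.30 for replicates 2 and 3, more than their same-numbered pairs. The labels state no pairing, so same-numbered arrays are not shown to be matched mice.

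Members, gene lists, alternatives and the naming rule were chosen with earlier results of these data known. The rule took all actin probe sets, the 4 members of each pathway list with the smallest unadjusted p, the 3 genes most like each actin, and Srf, Myocd, Nppa, Nppb, Myh6, Myh7, Xist, Eif2s3y and Ucp1, of which Myh6 and Eif2s3y are not described. Mrtfa and Mrtfb were named outside it, as the partners of SRF, and marker genes as members of their lists.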

Additional observations from a re-analysis of the deposited data

How the results depend on the processing

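Among alternatives that moved the value, Acta1, Actc1 and Actg2 kept the sign of their difference in 14 of 14 each and Acta2 in 16 of 16; the others left the value as it was and bear only on the p. Acta1 ranged from -0.67 to -0.32, Acta2 from 0.36 to 0.62 and Actg2 from -0.32 to -0.04. With the replicate block 0 of 6 actin genes and 0 of 9 actin probe sets passed, so the block changed no call on an actin, while the count over all genes was 13 with the block and 0 without it. Array weights called 1 actin gene, Acta2, and 416 genes in all. Over all genes the count was also 4 without knockout replicate 1, 2 without knockout replicate 2, 1 with replicates 2 and 3 alone, and 3 when a gene was the average over its probe sets. Leaving out each array in turn gave 0 actin genes and 0 actin probe sets each time. Without knockout replicate 2 sex and genotype coincide. Actg1 changed sign to 0.046 with the Xist covariate, as a gene and as a probe set. Actb, by its bright probe set, changed sign to 0.020 with the block and without the pair of replicate 3, and the third Acta2 probe set to -0.30 with the block and without the pair of replicate 2, to -0.27 without knockout replicate 2 and to -0.12 without wild-type replicate 1 (0.38, the highest with 1 array left out, without knockout replicate 1, and 0.77 with the Xist covariate); both alternatives with a pair left out were chosen after seeing the data, as was taking Actb from its second probe set (-0.30). The causes were not tested. Ratios between isoforms moved by less than the SD pooled over both groups, though Acta1 minus Actc1 shrank to -0.31 without wild-type replicate 1 and -0.27 with replicates 2 and 3 alone, and Actb minus Actg1 ranged from -0.56 to 0.06 over single arrays left out. Actc1 lies near the top of the scale, and Neb near the bottom, where RMA compresses differences. The third Acta2 probe set, with means of 5.76 in knockout and 5.68 in wild type, lay a little below the array medians. It was widely spread, with SDs of 0.66 and 0.43.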
